A study of Mus musculus with 12 samples.

Results

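The genes described here are 10 chaperones and targets of the unfolded protein response of the endoplasmic reticulum (ER): Hsp90b1, Hspa5, Hyou1, Calr, Pdia4, Creld2, Sdf2l1, Dnajc3, Dnajb9 and Xbp1. They are 10 of the 55487 genes in the count table, and all 10 were tested in every comparison. They form a known functional set that was selected on a measured value, the lower level of Hsp90b1 in KO than in WT liver, so the genotype values of these genes in liver are given as a description, without a test. Total RNA was sequenced from liver and brain of mice that lack Mettl5, whose product methylates an adenosine of 18S rRNA. The 4 groups are KO liver and KO brain (mice A, C and F) and WT liver and WT brain (mice B, D and E), with 3 libraries each. In the study's methods, KO mice carry a deletion of exon 2 of Mettl5, made in the whole body by crossing a floxed allele to CMV-Cre, on a line started from C57bl/6 x 129S6 ES cells and crossed back to C57bl/6. The labels call the controls WT, and the study's account of its mouse RNA-seq is mixed, naming the controls as heterozygous (Mettl5+/-) in some places and as wild type in others, so the genotype of the group called WT here is not settled by the sources. That account also speaks of pairs of mice, but the labels do not say which KO and control mouse form a pair, so no pairing across genotypes was used. No agent was given to any group. The study used mice of both sexes, from a few weeks to some months old, and the labels give no age, sex or batch for any mouse.

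Proteins that enter the ER are folded by a set of chaperones that hold them, add and trim sugars and form their disulphide bonds. When unfolded protein builds up, the sensors IRE1, PERK and ATF6 start the unfolded protein response (UPR): IRE1 splices the mRNA of the transcription factor Xbp1, ATF6 is cut to release another transcription factor, and both raise the genes of ER chaperones, while PERK slows translation. Hepatocytes secrete most plasma proteins and carry a large ER, so these genes are strongly used in liver.

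Many ATF6 and XBP1 targets carry the ER stress response element (ERSE) close to their start site, and it is shown here because it is the known regulatory link between members of the set. The letters searched were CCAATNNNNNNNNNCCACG on either strand, in the window from 250 bases before to 50 bases after each RefSeq start site (GRCm38.p6). Of the 10 genes, 9 had a promoter entry, and 5 of these 9 held the element (Hsp90b1, Hspa5, Calr, Dnajc3 and Creld2), against 39 of all 32851 promoters (0.119%). Hsp90b1 held it 2 times. In the lines that follow, capitals mark the element and 5 bases are shown on either side, on the strand of the gene, so that an element on the opposite strand begins with CGTGG.
Hspa5: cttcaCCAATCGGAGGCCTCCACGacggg
Calr: caacgCGTGGTCGACCCTCATTGGcccat
Dnajc3: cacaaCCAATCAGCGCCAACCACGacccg
Creld2: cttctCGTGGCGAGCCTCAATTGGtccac
These 4 runs lie at chr2:34772020-34772048 on the plus strand, chr8:84847070-84847098 on the minus strand, chr14:118937822-118937850 on the plus strand and chr15:88819515-88819543 on the plus strand. The one of Hspa5 is inside the gene as the count table annotates it, whose start lies 120 bases before the RefSeq start. Hsp90b1 is shown with the whole stretch between the start of its promoter window and the gene as the count table annotates it, 185 bases at chr10:86705510-86705694 on the minus strand, with both elements in capitals.
Hsp90b1: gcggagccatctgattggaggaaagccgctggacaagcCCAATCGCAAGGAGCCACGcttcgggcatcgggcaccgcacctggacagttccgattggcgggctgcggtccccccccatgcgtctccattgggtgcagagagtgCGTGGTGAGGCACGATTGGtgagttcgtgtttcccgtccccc
The first of these elements lies from 212 to 194 bases before the RefSeq start site of Hsp90b1 and the second, on the opposite strand, from 107 to 89 bases before it. Without its last 2 letters the element also matched the promoter of Pdia4, so that 6 of 9 promoters held CCAATNNNNNNNNNCCA, against 358 of all promoters (1.09%); every match to the longer form is also a match to this shorter one. Neither ERSE-II nor the UPRE, spelled TGACGTGG, was found in any of the 9 windows, and they were in 12 (0.0365%) and 222 (0.676%) of all promoters. A match is a description of these letters and not evidence of binding.

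Library totals ran from 14403309 to 21623180 counts, and the 10 genes were deeply counted: the lowest count of any of them in any liver library was 143 (Sdf2l1, mouse E) and in any brain library 75 (Sdf2l1, mouse C). Mettl5 itself, summed over all its exons, was at 13.2 ± 5.03 CPM in WT liver and 4.94 ± 0.291 CPM in KO liver (SD, n = 3 each), and at 5.25 ± 1.67 and 2.91 ± 0.266 CPM in WT and KO brain, without overlap in either tissue. CPM are read counts scaled to a common library size, with TMM factors set over all 12 libraries. Mice E (WT) and F (KO) stood apart from the others: their libraries had 116 to 336 counts on chromosome Y and at least 9446 of Xist, whereas the other 4 mice had at least 2183 and at most 19. Hepatocyte markers summed to 73446 to 98682 CPM in the liver groups, led there by Alb. In brain they summed to 166 to 298 CPM in WT and 87.1 to 136 CPM in KO, without overlap. Alb was at 12.1 CPM in WT brain and lower in KO brain, so other genes of the list gave most of these brain sums. Whether the brain sums came from hepatocytes was not tested. Neuron markers, led by Snap25, summed to 10.3 to 21.4 CPM in liver and 1712 to 2066 CPM in brain. Pancreatic acinar markers, from a tissue with very high ER chaperone levels that lies next to the liver, were at 0 in every library of the group for 8 of 10 genes in WT liver and 9 of 10 in KO liver, and summed to at most 0.469 CPM in any liver library, with Pnlip at 0. Mitochondrial rRNA took 10.7 to 16.9% of the counts in WT liver and 7.36 to 8.66% in KO liver, and 7.63 to 17.7% in WT brain and 21.4 to 31.6% in KO brain; its part in the genotype results was not tested. In bulk RNA, fewer cells of a type and less RNA per cell cannot be told apart.

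**Figure D1:**
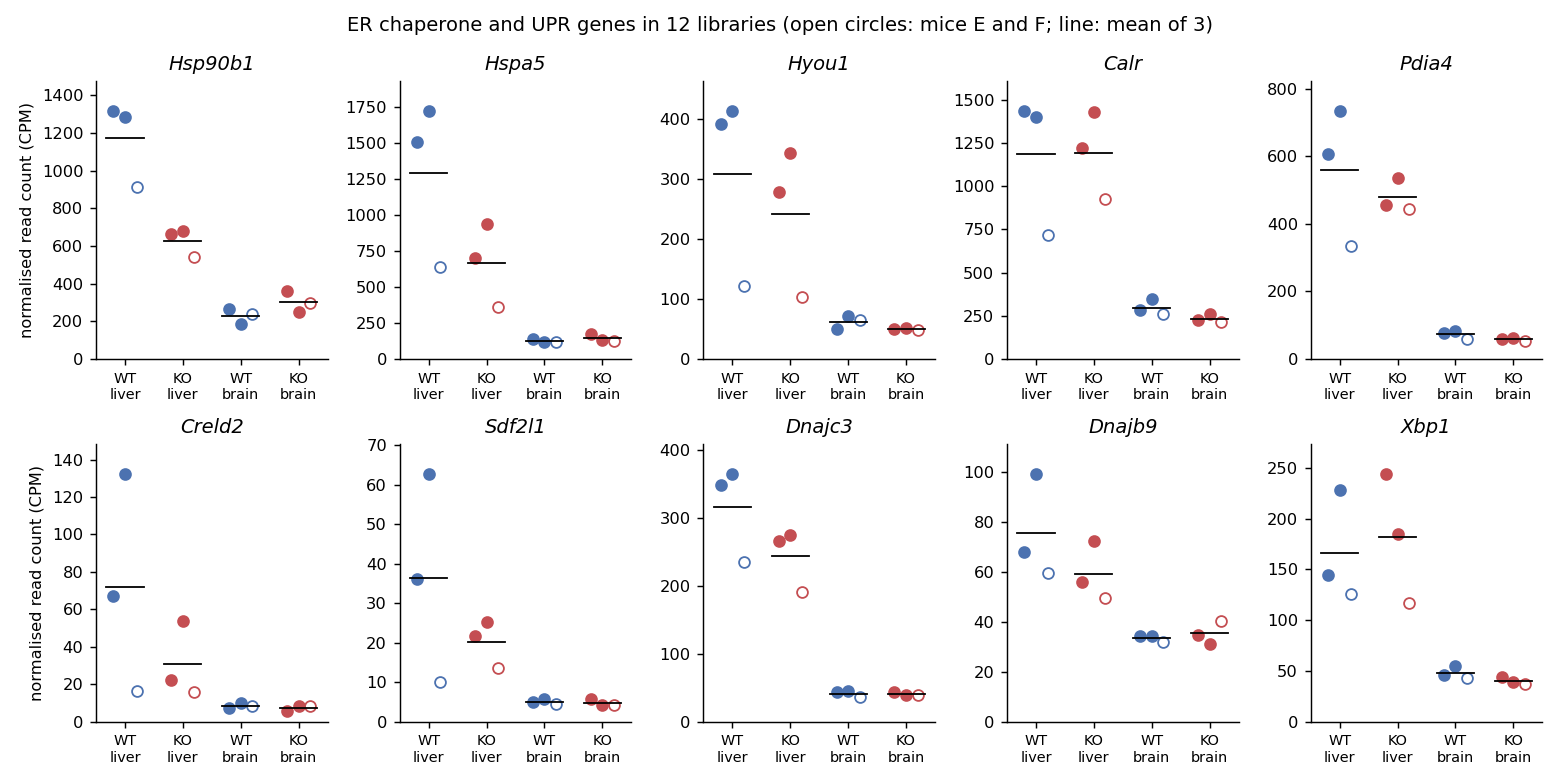
Normalised read count (CPM, linear axis from 0) of each of the 10 genes in all 12 libraries, by group, with mice E and F as open circles and the mean of 3 libraries as a line. Hsp90b1 is the one gene whose 3 KO liver libraries (543 to 677 CPM) all lie below its 3 WT liver libraries (912 to 1317 CPM), and every liver library lies above every brain library for all 10 genes.

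The first question was how these genes stood in KO against WT liver, the contrast on which Hsp90b1 had been noticed. Hsp90b1, which encodes GRP94, the HSP90 of the ER lumen, had 1317, 1285 and 912 CPM in WT liver (mice B, D and E) and 665, 677 and 543 CPM in KO liver (mice A, C and F). All 3 KO libraries lay below all 3 WT libraries, with means of 1171 ± 225 and 628 ± 74.2 CPM (SD, n = 3 each) and a log2 fold change of -0.93 (SE 0.18). Across the 14075 genes tested, 5.18% had all 3 KO libraries below all 3 WT libraries, and Hsp90b1 was 1 of 10 in the set. Its log2 fold change stayed between -1.08 and -0.83 when each mouse was left out in turn. The gene lies at chr10:86690209-86705509 on the minus strand, with 4032 bases of exon, of which 84 are shared with Gm15344 on the same strand (14 to 43 counts in any liver library) and 133 with Gm25745, which had 0 counts.

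Hspa5, which encodes BiP, the HSP70 of the ER and the main brake on the UPR sensors, had 1506, 1723 and 639 CPM in WT liver and 699, 939.5 and 358 CPM in KO liver. The WT library of mouse E lay inside the KO range, so the groups overlapped, although the log2 fold change of -0.98 (SE 0.48) was as large as that of Hsp90b1. Mice E and F were the lowest of their own groups. Hyou1, which encodes the nucleotide exchange factor GRP170 that resets BiP, had 392, 414 and 122 CPM in WT liver and 279, 345 and 104 CPM in KO liver, a log2 fold change of -0.38 (SE 0.65). Hspa5 lies at chr2:34771970-34777547 and Hyou1 at chr9:44379490-44392369, both on the plus strand.

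Calr, which encodes calreticulin, the calcium-binding lectin that holds glycoproteins, had 1436, 1402 and 718 CPM in WT liver and 1223, 1429 and 924 CPM in KO liver, with a log2 fold change of -0.02 (SE 0.28). Pdia4, which encodes the disulphide isomerase ERp72, had 606, 734 and 334 CPM in WT liver and 456, 536 and 443 CPM in KO liver (-0.25, SE 0.26). Neither gene separated the genotypes. Creld2, which encodes a secreted and ER-resident isomerase-like protein that is strongly raised by ER stress, had 67.4, 133 and 16.3 CPM in WT liver and 22.3, 53.9 and 15.7 CPM in KO liver. Its log2 fold change of -1.26 had the largest SE of the set (0.93), and its libraries of mice E and F were nearly equal. Calr lies at chr8:84841850-84846934 and Pdia4 at chr6:47796141-47813430, both on the minus strand, and Creld2 at chr15:88819646-88826683 on the plus strand.

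Among the J-proteins and stress-induced factors, the groups overlapped for every gene. Sdf2l1, part of a complex with the BiP partner Dnajb11, had 36.1, 62.8 and 10.2 CPM in WT liver and 21.6, 25.4 and 13.5 CPM in KO liver (log2 fold change -0.88, SE 0.69). Dnajc3, or p58IPK, a J-protein that also restrains PERK, had 349, 366 and 236 CPM in WT liver and 267, 275 and 191 CPM in KO liver (-0.40, SE 0.21). Dnajb9, or ERdj4, the J-protein that brings BiP to IRE1, had 67.9, 99.2 and 59.4 CPM in WT liver and 56.0, 72.2 and 49.4 CPM in KO liver (-0.38, SE 0.22). In each of the 3, the WT library of mouse E lay below at least 1 KO library. Xbp1 was the exception in direction, with 144, 228 and 126 CPM in WT liver and 245, 185 and 117 CPM in KO liver (0.10, SE 0.32). Counts summed over exons do not separate its spliced from its unspliced mRNA, so they do not read IRE1 activity. These genes lie at chr16:17130138-17132383 (Sdf2l1, minus strand), chr14:118937976-118981697 (Dnajc3, plus strand), chr12:44205559-44210326 (Dnajb9, minus strand) and chr11:5520659-5525893 (Xbp1, plus strand).

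In liver, the fitted log2 fold change was below 0 for 9 of the 10 genes, although for Calr it was -0.02 and the mean CPM were 1192 in KO and 1185 in WT, and the median of the 10 was -0.39 on the log2 scale, where all genes tested had a median of -0.00 and 50.4% were lower. With edgeR's quasi-likelihood test, 0 of all 14075 genes passed an adjusted p of 0.1 (0%), while 1032 had an unadjusted p under 0.05 and DESeq2 called 187 (1.33%), so no count of called members is read from this contrast. With each mouse left out in turn, the log2 fold change ran from -1.32 to -0.68 for Hspa5, from -1.96 to -0.46 for Creld2, from -1.32 to -0.21 for Sdf2l1, from -0.76 to -0.015 for Hyou1, from -0.55 to -0.12 for Dnajb9 and from -0.58 to -0.25 for Dnajc3. It changed sign for Calr (-0.28 to 0.14), Pdia4 (-0.51 to 0.0064) and Xbp1 (-0.17 to 0.41). The median of the 10 genes was -0.17 without WT mouse D, -0.26 without KO mouse F, -0.64 without KO mouse C and -0.67 without WT mouse E. Mouse D had the highest liver library for 7 of the 10 genes, and its B and plasma cell markers, led by Ighm, summed to 366 CPM, against 26.9 to 74.4 CPM in the other 5 liver libraries; the part of these markers in the result was not tested. Among the 4 mice other than E and F, 9 of 10 genes were lower in KO liver and 7 did not overlap between KO A and C and WT B and D, against 17.9% of all genes with KO A and C both below WT B and D, and the median log2 ratio was -0.42; in the pair E and F, 7 of 10 were lower in KO, with a median of -0.17. These counts only describe the genes, since this contrast was used to select them and the split of mice was made after the data were seen.

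**Figure D2:**
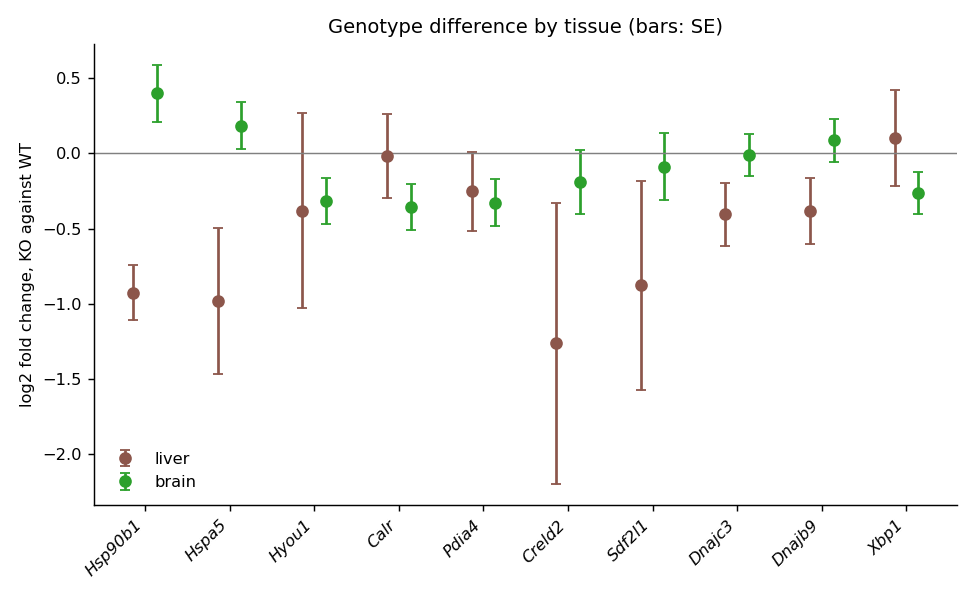
Log2 fold change of KO against WT for each of the 10 genes in liver and in brain, with the SE of the edgeR fit as bars. In liver the points run from -1.26 (Creld2) to 0.10 (Xbp1) with wide bars for Creld2, Sdf2l1 and Hyou1, and in brain from -0.35 (Calr) to 0.40 (Hsp90b1).

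The rule for choosing the genes did not use brain values, and the same contrast was tested in brain. No member passed the test: 0 of 10 had an edgeR adjusted p under 0.1, against 11 of 17188 genes tested (0.064%), 1 of the 10 (Calr) had an unadjusted p under 0.05, against 11% of all genes, and DESeq2 also called 0 of the 10, against 1.66%. KO brain was below WT for 7 of the 10 genes, and their median was -0.14 on the log2 scale (all genes tested -0.00), or -0.03 without WT mouse D. Calr had 285, 347 and 262 CPM in WT brain and 225, 259 and 212 CPM in KO brain, so that all 3 KO libraries lay below all 3 WT libraries, as in 7.95% of all genes tested. Its log2 fold change was -0.35 (SE 0.15, edgeR adjusted p 0.444). Hsp90b1 had 268, 185 and 239.5 CPM in WT brain and 363, 251 and 296 CPM in KO brain, which is 0.40 higher on the log2 scale (SE 0.19, edgeR adjusted p 0.466). For Hsp90b1 the KO library of mouse C lay inside the WT range. Hspa5 had 140, 119 and 118 CPM in WT brain and 170.5, 129 and 128 CPM in KO brain (log2 fold change 0.18, SE 0.16). With each mouse left out, the brain value ran from 0.034 to 0.28 for Hspa5 and from 0.25 to 0.52 for Hsp90b1. Pdia4, Hyou1 and Xbp1 had log2 fold changes of -0.33, -0.31 and -0.26, each with an SE from 0.14 to 0.16 and with overlapping groups, and those of Creld2, Sdf2l1, Dnajc3 and Dnajb9 ran from -0.19 to 0.09.

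The brain libraries of the 2 genotypes differed in regional markers. Olfactory bulb markers, including Cdhr1, summed to 4.35 to 9.47 CPM in WT and 28.1 to 42.4 CPM in KO brain, and cerebellum markers, including Car8, to 490.5 to 772 CPM in WT and 45.5 to 293 CPM in KO brain. Choroid plexus markers, including Aqp1, summed to 24.6 to 39.2 CPM and 15.1 to 19.6 CPM. The part of these regions, and of the hepatocyte markers given above, in the brain values of the chaperones was not tested. Oligodendrocyte markers (led by Mbp, 1341 to 1839 CPM in WT and 1135 to 1529 CPM in KO brain), astrocyte markers (led by Slc1a2, 1814 to 2489 and 1854 to 2589 CPM) and the microglia and Kupffer list (56.6 to 74.5 and 57.1 to 72.6 CPM) overlapped between genotypes. In liver the same list (led there by Clec4f, 226 to 328 CPM in WT and 175 to 342 CPM in KO), cholangiocyte markers (led by Spp1, medians of 35.7 and 30.8 CPM), endothelial markers (led by Stab2, 330 to 441 and 361 to 443 CPM) and stellate markers (led by Reln, 310.0 to 359 and 351 to 475 CPM) overlapped as well.

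The genotype difference in liver minus that in brain, a contrast that shares the liver values with the choice of genes and is therefore descriptive for them, was -1.29 (SE 0.29) on the log2 scale for Hsp90b1 and -1.13 (SE 0.50) for Hspa5. It ran from -1.04 (Creld2) to 0.40 (Xbp1) for the other 8 genes, and with each mouse left out it changed sign for Hyou1 (-0.45 to 0.31) and Pdia4 (-0.019 to 0.25). It then ran from -1.63 to -0.38 for Creld2, from -1.11 to -0.21 for Sdf2l1, from -0.68 to -0.20 for Dnajb9, from 0.19 to 0.56 for Calr and from 0.20 to 0.59 for Xbp1, and the median of the 10, at -0.40, ran from -0.58 to -0.21. Over all 18944 genes, 0 passed an edgeR adjusted p of 0.1 (0%), 2004 had an unadjusted p under 0.05 and DESeq2 called 379. With mouse as a replicate block, which pairs the 2 tissues of an animal, 68 were called (0.359%).

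The second contrast that the rule for choosing the genes did not use was tissue, although earlier results of these data were known at that time. All 10 genes were higher in liver than in brain, averaged over both genotypes, and all 10 passed the test, against 37.9% of all 18944 genes called higher in liver and 47% called lower. The 6 liver libraries lay above the 6 brain libraries for all 10, as for 29% of all genes. Pdia4 had the largest difference (log2 fold change 2.99, SE 0.18, edgeR adjusted p 1.04e-09), followed by Hspa5 (2.79, SE 0.27), Dnajc3 (2.75, SE 0.14) and Creld2 (2.54, SE 0.47). Hsp90b1 was among the smallest (1.70, SE 0.15, edgeR adjusted p 7.67e-08), and Dnajb9 was smallest (0.95, SE 0.14, edgeR adjusted p 1.85e-05). Sdf2l1 (2.48), Hyou1 (2.30), Calr (2.18) and Xbp1 (1.99) lay between. The median of the 10 was 2.39, with all genes tested at -0.22, and it was 2.61 between the WT libraries alone and 2.20 between the KO libraries alone.

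Levels of different genes were compared per kb of exon. In WT liver the order was Calr (411 CPM per kb), Hspa5 (305), Hsp90b1 (290), Pdia4 (233), Dnajc3 (61.7), Creld2 (52.8), Xbp1 (51.2), Hyou1 (42.8), Sdf2l1 (32.8) and Dnajb9 (29.6). One step in that order, from Pdia4 down to Dnajc3, separated the 3 libraries of one gene from the 3 of the next, and all other neighbours overlapped. In KO liver Hspa5 (157 CPM per kb) and Hsp90b1 (156) lay below Pdia4 (199), and the steps from Calr to Pdia4 and from Hsp90b1 to Xbp1 separated the libraries. In WT brain the order was Calr (103), Hsp90b1 (57.2), Pdia4 (30.3), Hspa5 (29.8), Xbp1 (14.8), Dnajb9 (13.2), Hyou1 (8.58), Dnajc3 (8.08), Creld2 (6.32) and Sdf2l1 (4.51). Calr had the highest mean per kb in all 4 groups, and in KO brain (80.7 CPM per kb) its libraries overlapped those of Hsp90b1 (75.2).

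**Figure D3:**
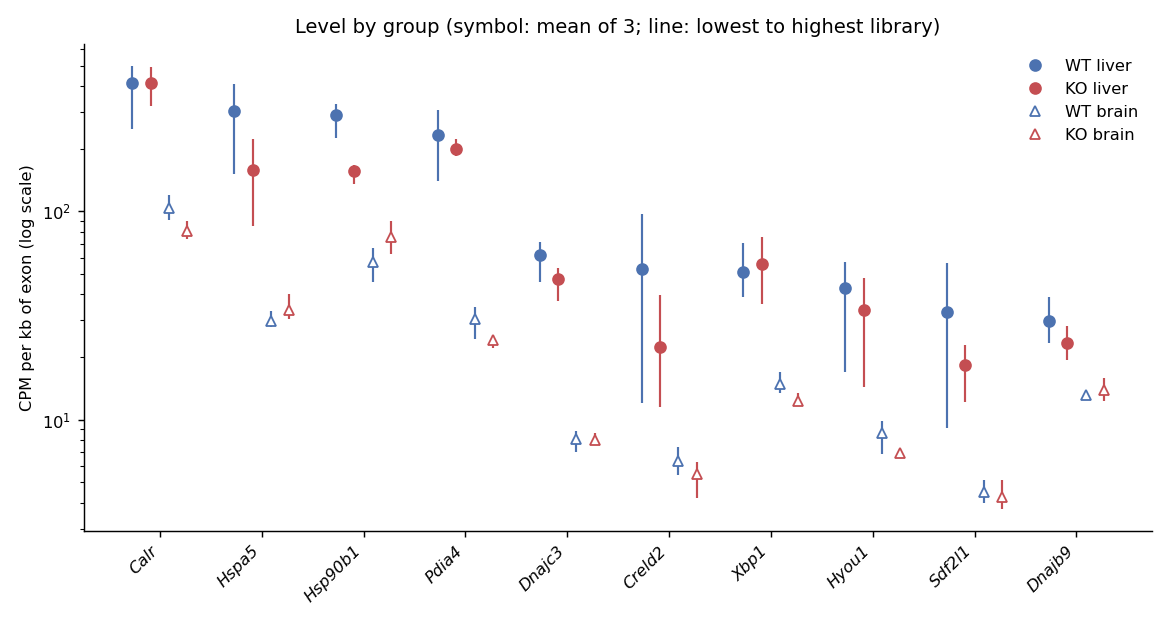
Mean level of each gene per kb of exon (CPM per kb, log scale) in the 4 groups, with a line from the lowest to the highest of 3 libraries and genes in the order of WT liver. Calr, Hspa5, Hsp90b1 and Pdia4 lie between 233 and 411 CPM per kb in WT liver and the other 6 genes between 29.6 and 61.7, with longer lines in liver than in brain for Creld2, Sdf2l1 and Hyou1.

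The members differed in how much they varied among mice of one group. The coefficient of variation in WT liver was 80.8% for Creld2, 72.5% for Sdf2l1 and 52.5% for Hyou1, against 19.2% for Hsp90b1 and 22.3% for Dnajc3. In WT brain it was 15.8%, 13.1% and 18.1% for Creld2, Sdf2l1 and Hyou1. In liver, mouse F had the lowest library for 7 of the 10 genes and mouse E for the other 3 (Calr, Pdia4 and Sdf2l1), whereas mouse D had the highest for 7, mouse B for 2 and mouse A for 1 (Xbp1).

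Mice E and F were then set against the other 4, a comparison added after the data were seen, with genotype in the fit. The 2 mice were told apart by their libraries' Y-linked and Xist reads, which are no part of the gene set. One is WT and one KO, so the split does not follow genotype. In liver all 10 genes were lower in E and F, and 5 of the 10 passed an edgeR adjusted p of 0.1 (Hyou1, Hspa5, Calr, Dnajc3 and Hsp90b1), against 5.92% of 14075 genes called lower. For 8 of the 10, all but Hsp90b1 and Dnajb9, both libraries lay below the other 4, against 15.3% of all genes. Hyou1 was 3.14-fold lower (log2 fold change -1.65, SE 0.14, edgeR adjusted p 6.52e-05), with 122 and 104 CPM in E and F and 279 to 414 CPM in the others. Hspa5 was 2.40-fold lower (-1.27, SE 0.16, edgeR adjusted p 0.00127) and Calr 1.68-fold lower (-0.75, SE 0.15, edgeR adjusted p 0.0158). The smallest of the called differences was that of Hsp90b1 (-0.41, SE 0.12, edgeR adjusted p 0.0799).

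The remaining 5 had log2 fold changes from -1.92 (Creld2, SE 0.70) to -0.43 (Dnajb9, SE 0.18), with edgeR adjusted p from 0.104 (Xbp1) to 0.245 (Creld2). With each mouse left out, this value ran from -2.61 to -1.29 for Creld2, from -2.28 to -0.80 for Sdf2l1 and from -1.0 to -0.17 for Pdia4. DESeq2 called 9 of the 10, all but Dnajb9, against 6.54% of all genes called lower by DESeq2. With a mouse left out, the fits without E or F keep 1 mouse on that side, which is assumed to vary like the others. Hyou1 and Hspa5 were called in all 6 such fits. Calr was not called without mouse E (edgeR adjusted p 0.301), Dnajc3 without E (0.247) or F (0.178), and Hsp90b1 without B (0.179), C (0.171), E (0.526) or F (0.266). Conversely, Pdia4 was called without A or F, Sdf2l1 without D or F, and Xbp1 without B. Hepatocyte markers summed to 73446 CPM in the liver of mouse E and 88776 CPM in that of mouse F, the lowest of the 6 (92873 to 98682 CPM in the others), and the part of this difference was not tested. High Xist with few Y-linked reads is the pattern of female mice, although the labels give no sex. Age, litter and time of collection are not in the labels either, and cannot be told apart from this split. In brain 0 of the 10 were called in the same comparison by edgeR or by DESeq2, 0 of the 10 had an unadjusted p under 0.05, and of 17188 genes 0.0233% were called by edgeR, 0.0931% by DESeq2 and 1.89% had such a p. The brain log2 fold changes of the 10 genes ran from -0.31 (Pdia4) to 0.10 (Dnajb9). Whether the difference itself differed between liver and brain was not tested.

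**Figure D4:**
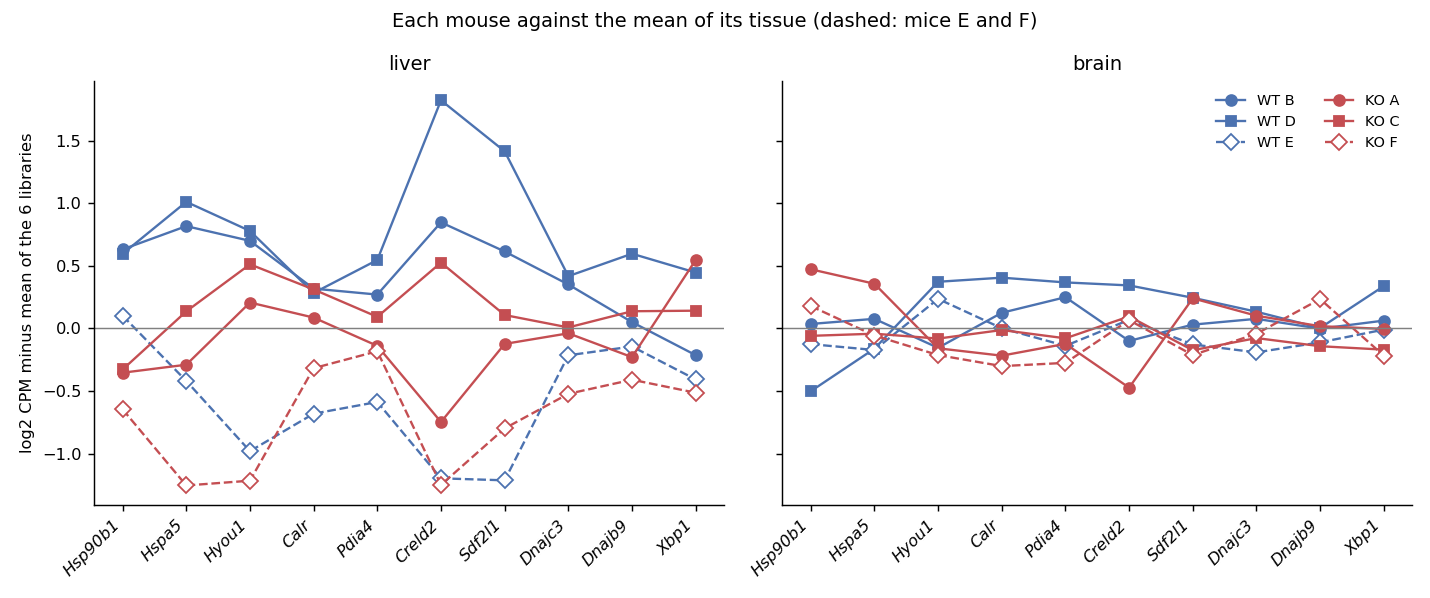
Log2 CPM of each gene in each mouse minus the mean of the 6 libraries of that tissue, for liver and brain, with WT mice in blue, KO mice in red and mice E and F dashed. In liver the line of mouse F is lowest for 7 genes and that of mouse E for 3, while the WT mice B and D are highest for 9, and in brain the lines lie closer together.

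The rest of the secretory pathway was read from lists of genes with known roles. In liver KO against WT, 0 of the 115 pathway genes tested were called by edgeR, 7 had an unadjusted p under 0.05 (7.33% of all genes did), and DESeq2 called 1 (Sec62). Of the 115, 69.6% stood below WT, and their median was -0.10 (log2), where all genes had 50.4% and -0.00. The ER folding partners (co-chaperones, prolyl isomerases and lectins) had 15 of 23 lower and a median of -0.07, and values of -0.90 (SE 0.68) for Manf and 0.37 (SE 0.14) for Serpinh1, the collagen chaperone HSP47. Oxidative folding genes had 13 of 16 lower (median -0.11), with Pdia3, the isomerase ERp57 that works with calreticulin, at -0.41 (SE 0.26) and Ero1l, the oxidase that recharges isomerases, at -0.34 (SE 0.21). Genes of ER-associated degradation (ERAD), which removes misfolded protein, had 15 of 21 lower (median -0.11), with Edem1, which draws misfolded glycoproteins into degradation, at -0.36 (SE 0.13) and Erlec1, an ERAD lectin, at -0.35 (SE 0.13), both with all KO below all WT libraries. Without WT mouse D, 5 of the 6 secretory lists had medians above 0 (the PERK arm list among them) and ER export was at -0.04.

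Of the UPR sensors and genes of the PERK arm, 11 of 18 were higher in KO liver, with a median of 0.05. This median was -0.0033 without WT mouse E and -0.0090 with an offset for GC content, and a difference between lists was not tested. Chac1, a glutathione-degrading target of ATF4 and CHOP, was at 1.21 (SE 0.47) with all 3 KO libraries above the WT libraries, while Ern1, which encodes IRE1, was at 0.34 (SE 0.22) with overlap. Neither passed the test (edgeR adjusted p 0.629 for Chac1 and 0.798 for Ern1). Translocation and glycosylation genes had 16 of 21 lower (median -0.17), with Sec62, a subunit of the post-translational translocon, at -0.93 (SE 0.23, edgeR adjusted p 0.428) and Stt3b, an oligosaccharyltransferase, at -0.33 (SE 0.14). ER export genes had 14 of 16 lower (median -0.12), with Sar1b, the GTPase of the COPII coat, at -0.34 (SE 0.14). Cytosolic heat shock genes, listed for comparison, had 12 of 15 lower (median -0.22), led by Hsp90aa1, the inducible cytosolic HSP90 (-1.32, SE 0.26, edgeR adjusted p 0.383), and Dnaja1 (-0.47, SE 0.16).

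In brain, 0 of the 116 pathway genes tested were called by edgeR or by DESeq2, and 14 had an unadjusted p under 0.05, near the 11% of all genes. Of the 116, 64.7% were lower in KO brain and 16.4% had all KO below all WT libraries, against 50.2% and 7.95% of all genes. Among the values of smallest p in 5 of the lists were Herpud1, an ERAD scaffold (-0.59, SE 0.18), Eif2ak3, which encodes PERK (-0.65, SE 0.18), Stt3a (-0.42, SE 0.16), Erp29 (-0.36, SE 0.14) and Dnajc1 (0.61, SE 0.22). For each of these 5 the groups did not overlap.

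In liver, mice E and F were lower than the other 4 for 107 of the 115 pathway genes (93.0%), against 48.3% of all genes tested. Of the 115, 41 were called lower and 1 higher (Trib3, a PERK arm pseudokinase, log2 fold change 0.84, SE 0.27, edgeR adjusted p 0.0990), against 5.92% of all genes called lower and 4.45% called higher, and the median was -0.36 (all genes tested 0.01). With each mouse left out, the medians of the pathway lists ran from -0.56 (translocation and glycosylation, without F) to -0.22 (oxidative folding, without E). Calls of the pathway genes were not counted in those fits. Translocation and glycosylation had 11 of 21 called lower, among them Sec61a1, the channel of the translocon (-0.67, SE 0.12). ER folding partners had 7 of 23, with Dnajb11, a BiP J-protein, at -1.07 (SE 0.14). Oxidative folding had 6 of 16, with Ero1lb at -1.30 (SE 0.14) and Pdia6 at -0.95 (SE 0.15). ERAD had 7 of 21, with Syvn1, the ubiquitin ligase HRD1, at -1.24 (SE 0.16), ER export had 7 of 16, with Sec24d at -0.95 (SE 0.13), and the UPR sensors and PERK arm had 3 of 18, with Wfs1 at -0.79 (SE 0.19) and Atf4 at -0.42 (SE 0.11). Cytosolic heat shock had 4 of 15 called lower, with Hsph1 at -0.65 (SE 0.16). In the tissue contrast, 96 of 119 pathway genes were called higher in liver and 15 lower, against 37.9% and 47% of all genes, with a median of 1.42. All 16 ER export genes were called higher, and genes with the smallest p of their lists included Qsox1 (5.01, SE 0.11) and P4hb (4.21, SE 0.15), both of oxidative folding, Edem1 (4.44, SE 0.15) and Creb3l3, a liver transcription factor of the ER membrane (9.38, SE 0.30), whereas Ddit3, which encodes CHOP (-1.46, SE 0.14), and the thioredoxin-like Tmx4 (-2.48, SE 0.14) were lower in liver, and the lectin Clgn was barely counted there.

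**Figure D5:**
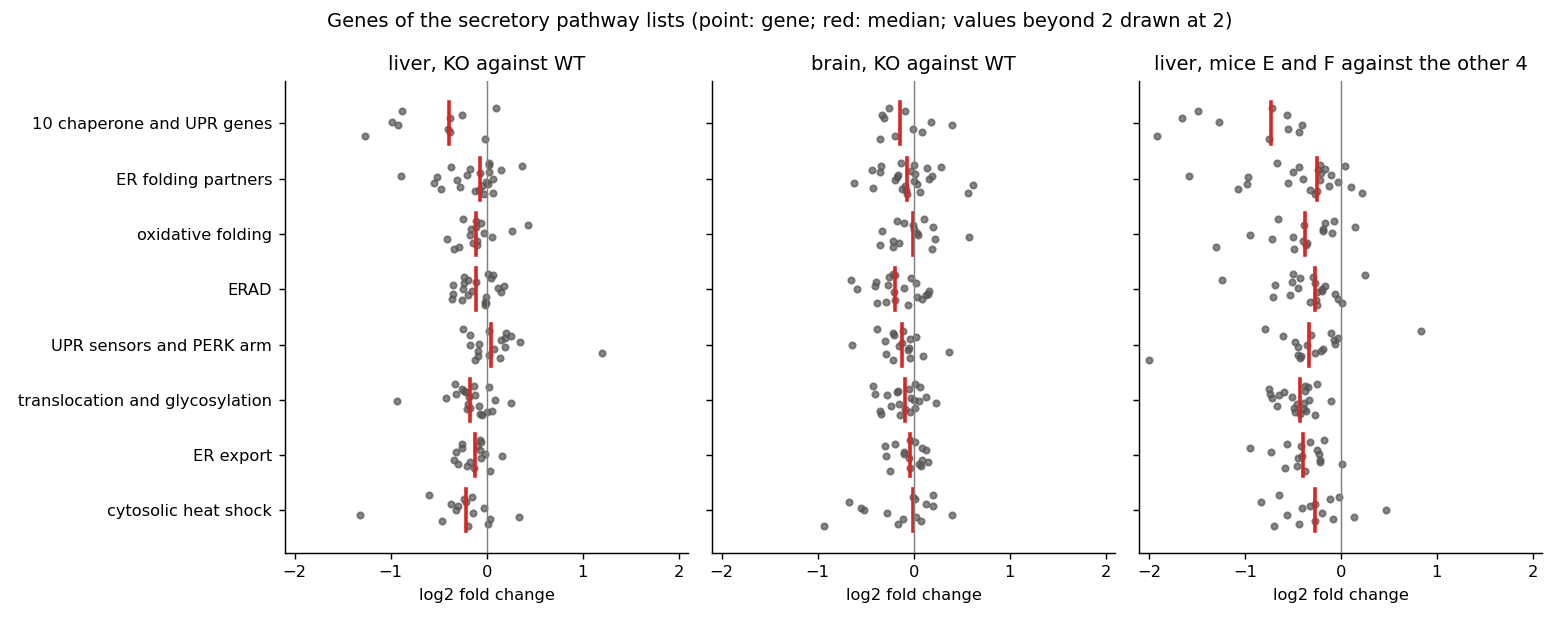
Log2 fold change of every tested gene of the 10-gene set and of the 7 lists in 3 comparisons, with the list median in red and values beyond 2 drawn at 2 (1 gene, Asns at -3.46). In liver the median of the 10 genes is -0.39 in KO against WT, the contrast used to select them, and -0.73 in mice E and F against the other 4, and the medians of the 7 lists run from -0.22 to 0.05 and from -0.43 to -0.25. Without WT mouse D, the first median is -0.17, and that of cytosolic heat shock is -0.20.

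Genes other than the members that hold the ERSE in their promoter window were counted as well, where their promoter symbol matched the count table. Ero1b holds the element but is named Ero1lb in the count table, so it is missing from these counts and medians. Ero1lb was lower in the livers of mice E and F, as given above. In liver KO against WT, 9 of 12 such genes tested were lower (median log2 fold change -0.19), none was called by edgeR, 4 had an unadjusted p under 0.05 and DESeq2 called 1, against 7.33% and 1.33% of all genes. They included Alg12, a mannosyltransferase of glycan assembly (-0.56, SE 0.22), Acacb (-0.70, SE 0.19) and Adcy3 (1.03, SE 0.32). In mice E and F against the other 4 livers, 5 of 12 were lower (median 0.17), with Syvn1 and Pdia6 called lower and Acnat2 higher (1.42, SE 0.28), against 5.92% and 4.45% of all genes. The 5 members with the element ran from -1.26 to -0.02 in liver KO against WT.

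Among the members, likeness to Hsp90b1 was described by the Pearson correlation of log2 CPM over the 12 libraries, centred within each tissue, with no test, since these points share libraries, animals and genotype. It was 0.82 for Hspa5, 0.69 for Dnajc3 and 0.64 for Dnajb9, but 0.01 for Calr and -0.01 for Xbp1. Within the 6 brain libraries, Creld2 (-0.91), Calr (-0.87) and Hyou1 (-0.84) ran opposite to Hsp90b1, whereas Hspa5 (0.83) ran with it. The correlations carry no offset for GC content, and the part of GC content in them was not tested. Over 12574 genes tested in both tissues, the 5 genes outside the set that were most like Hsp90b1 were Fkbp3 (0.938), 2610002M06Rik (0.937), Tiam2 (0.934), Hsp90aa1 (0.934) and Ufl1 (0.933). The 5 most like the mean of the 10 members were Dnajb11 (0.978), Prelid3b (0.975), Sec22b (0.975), Papss1 (0.970) and Manf (0.968).

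The GC content of a gene moved with the genotype difference, in opposite directions in the 2 tissues. Split by GC content into 4 equal groups of genes, the lowest group stood at a median of -0.12 (log2) in KO liver and 0.21 in KO brain, and the highest group at 0.07 and -0.16. GC content of the members ran from 40.6% (Dnajb9) and 42.1% (Hsp90b1) to 56.7% (Sdf2l1), around a median of 49.0% of genes tested in liver. With an offset per library for its GC trend, Hsp90b1 was at -0.83 (SE 0.19) in liver and 0.24 (SE 0.13) in brain, the median of the members was -0.38 in liver and -0.13 in brain, and the difference between tissues of Hsp90b1 was -1.07 (SE 0.25). That difference was -0.12 for Dnajb9, against -0.43 without the offset, and the members' median was -0.18, against -0.40. In mice E and F against the others the offset left the members' median in liver at -0.72.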

How the data were processed

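Per the labels and the methods, the authors made stranded total RNA libraries, sequenced single-end reads, aligned them to mm10 with STAR 2.7.3a and counted reads over exons with featureCounts on the reverse strand. The deposited values are raw counts per gene, not normalised. The authors compared genotypes with DESeq2.

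Counts were refitted with edgeR 4.0.16 in R 4.3.3 (TMM, filterByExpr by group, robust quasi-likelihood F test, Benjamini-Hochberg over all genes, calls at an adjusted p under 0.1), each tissue on its own 6 libraries and tissue contrasts on all 12. SE were derived from the F statistic. Alternatives were DESeq2 1.42.0, RLE factors, no filter, each mouse left out, a Y-linked covariate, all libraries in 1 fit and mouse as a block; the GC offset, the 4 mice with Y-linked transcripts alone and the comparison of mice E and F were added after seeing the data. Scripts were tested on simulated data.

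Members, gene lists and the naming rule were all chosen with earlier results of these data known. The rule names all members, Mettl5, up to 2 genes with the smallest p in each direction per list and contrast, the 5 genes most like Hsp90b1 and the 5 most like the members' mean, and the top gene of each marker list. Manf, Hsph1, Asns and genes named in counts of 5 or fewer, where outside it, were chosen after their values were seen.

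Letters in the labels pair the liver and brain of an animal. Deviations of paired libraries from group means correlated from -0.0387 (mouse B) to 0.141 (mouse F) over 12574 genes. Replicates are separate mice, and with 3 a group p-values rest on few animals. Sequences and promoters are from RefSeq (GRCm38.p6), and gene positions from the count table (mm10). A table of proteins was not used here.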

Additional observations from a re-analysis of the deposited data

Results flagged for a closer look

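Hsp90aa1, the inducible cytosolic HSP90 and paralogue of Hsp90b1, had a lower genotype difference in liver than in brain by a test of the difference itself. This difference was called with mouse as a block, but not in the main edgeR fit without the block. With mouse as a block, the difference was -1.65 on the log2 scale (SE 0.31, edgeR adjusted p 0.0902), and without the block it was -1.69 (SE 0.34, edgeR adjusted p 0.132). Without the block it was also called by edgeR with no filter on low counts (-1.65, adjusted p 0.00485) and by DESeq2 (-1.71, adjusted p 0.00159), and it was not called with RLE factors, with the Y-linked covariate or with any mouse left out (edgeR adjusted p 0.116 to 0.371). In liver Hsp90aa1 had 353, 211 and 192 CPM in WT (mice B, D and E) and 115, 117 and 77.4 CPM in KO (mice A, C and F). In brain it had 701, 580.1 and 691 CPM in WT and 1012, 741 and 839 CPM in KO, without overlap in either tissue. Its GC content was 43.7%, and with the GC offset the difference was -1.53 (SE 0.32, edgeR adjusted p 0.144). The brain libraries of the 2 genotypes also differed in regional markers, as given above, and their part in this difference was not tested.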

How the results depend on the processing

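The number of genes called at an adjusted p under 0.1, by edgeR unless DESeq2 is named, changed with the processing. Values of the chaperones changed with it too. In liver KO against WT, 0 genes became 443 without the filter on low counts, 187 with DESeq2, 82 with a Y-linked covariate, 3 with all 12 libraries in 1 fit, 29 in the 4 mice other than E and F, and 0 to 87 with each mouse left out (87 without WT mouse D). In brain, 11 became 1000, 286 (DESeq2), 0 in those 4 mice, 19 with the GC offset, and 2 to 23 with each mouse left out. For the genotype difference between tissues, 0 became 183 without the filter, 379 with DESeq2, 1 with RLE factors, 0 to 86 with each mouse left out (86 without WT mouse D), and 68 with mouse as a replicate block. The block changed no call of the 10 genes in the tissue contrast, where all 10 were called under every alternative run. For mice E and F in liver, 1459 became 2263 without the filter and 347 to 1758 with each mouse left out, and in brain 4 became 52, 16 (DESeq2) and 4 to 9. With each mouse left out, Calr, Pdia4 and Xbp1 changed sign in liver, and Hyou1 and Pdia4 in the difference between tissues. Small brain values changed sign too: Dnajc3 ran from -0.097 to 0.043, Sdf2l1 from -0.25 to 0.0061 and Dnajb9 from -0.021 to 0.17 with each mouse left out, Sdf2l1 was 0.10 and Dnajb9 -0.14 with the GC offset, and Dnajb9 was -0.052 in the 4 mice. The cause of these changes was not tested. The effect of depth was not tested.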
